A study of Mus musculus with 31 samples.

Results

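The effect of PF-04287881, an antibiotic candidate, was measured in the liver of NZW/LacJ mice, the strain, of the 4 inbred strains studied, that was coded for both vacuolated Kupffer cells and single cell necrosis. The 8 animals were taken by their labels, as 4 NZW/LacJ females given PF-04287881 and 4 given the vehicle, of 31 animals in all. Earlier results of these data were known when they were chosen. The other strains were MA/MyJ, coded for vacuolation without necrosis, and SM/J and WSB/EiJ, coded for neither. All animals were females aged 8 to 10 weeks, and no animal carried a transgene according to the labels. Treated animals received 600 mg/kg by oral gavage on each of 7 days, and vehicle animals received sterile water in the same way. The left liver lobe was taken 24 h after the last dose, and RNA from each animal was hybridised to its own mouse expression array. An inbred strain is a single genotype, and all animals came from the same study. The p-values below therefore say nothing of genotypes not studied or of other NZW/LacJ colonies. They set each difference against the spread of animals within groups, pooled over all 31 arrays of the 4 strains. The microscopic findings were coded by strain and not by animal, and the labels used here do not give the hour at which an animal was killed.

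Lysosomes are the acidic compartments in which cells break down worn membranes, sugars and proteins. A proton pump, the vacuolar ATPase, keeps them acidic. Some drugs cause phospholipid to build up there, which is known as phospholipidosis, and Kupffer cells, the resident macrophages of the liver sinusoids, can then look vacuolated. Hepatocytes also run a circadian clock, in which the ARNTL and CLOCK proteins switch on the Per, Cry and Dbp genes and the PER and CRY proteins switch ARNTL and CLOCK off again. Interferons are secreted antiviral signals that induce a shared set of genes in most cell types, several of them through a promoter element known as the interferon-stimulated response element.

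All values are log2 signals, so a difference of 1 is a doubling, and they were taken from 1 probe set per gene for 12890 genes. Each difference below is the treated minus the vehicle mean, ± 1 standard error from a limma model fitted to all 31 arrays, with a two-sided p adjusted by Benjamini-Hochberg over the 12890 genes. "Rose" and "fell" are used for an adjusted p under 0.05, and 4 animals a group limit the precision. The 20 hepatocyte markers tested had vehicle means from 8.30 to 14.78, so the samples carried the RNA of liver. With the drug 2 of them rose, 1 fell and 17 did not pass. The marker that fell was Hnf4a, by 0.29, and it did not pass without any 1 of the 8 animals (limma adjusted p up to 0.13). Its 3 other probe sets above the filter differed by -0.57 to -1.3. On a scale built from 100 probe sets, where vehicle NZW/LacJ arrays average 1 and the other strains 0, the treated NZW/LacJ arrays lay between 0.874 and 0.915. The array that the labels give to WSB/EiJ PF-04287881 animal 3 scored 0.998 on that scale and at -0.00897 on the matching WSB/EiJ scale, against its label. That array enters the NZW/LacJ differences only through the pooled spread. Counts over all genes are given with and without it, as are list counts that moved by more than 1.5 times.

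The drug changed 2766 genes in NZW/LacJ liver, with 1941 higher (15.1% of genes tested) and 825 lower (6.4%), and the median difference over all genes was 0.02. List counts below are to be read against these shares, and several lie close to them. The values of the treated animals all lay above those of the vehicle animals for 2840 genes (22%) and all below for 1538 (11.9%). Most changes were small, with 243 genes rising and 42 falling by at least 1 log2 unit. The balance of directions depended on the scaling of the arrays. When the arrays were quantile normalized again, 1425 genes were higher and 1548 lower, so that 47.9% of the calls were upward against 70.2% in the values as deposited. Without the array in doubt the counts were 2360 and 1076.

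**Figure D1:**
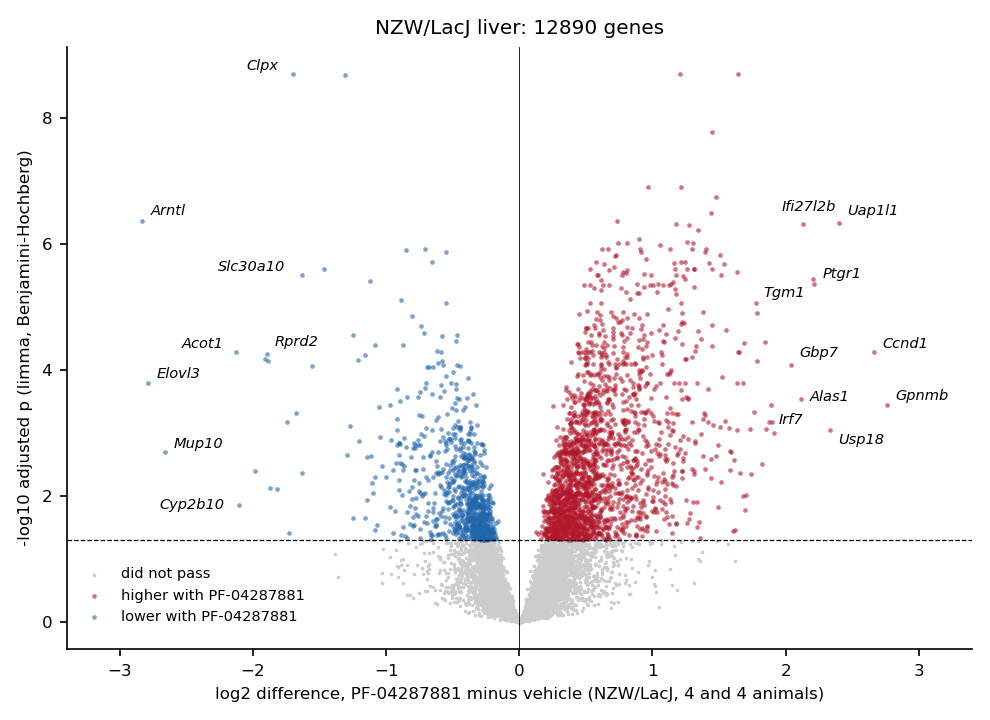
The difference between 4 treated and 4 vehicle NZW/LacJ animals (log2, horizontal axis) is plotted for 12890 genes against -log10 of the limma adjusted p (vertical axis), with the dashed line at 0.05. The 1941 red genes rose and the 825 blue genes fell. Gpnmb, Ccnd1 and Uap1l1 lie farthest right among the named genes, and Arntl, Elovl3 and Mup10 lie farthest left.

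The largest increase was that of Gpnmb, a lysosomal membrane glycoprotein of lipid-laden macrophages. Its signal was 5.95, 5.96, 5.80 and 5.89 in vehicle animals 1 to 4 and 9.98, 7.12, 7.69 and 9.85 in treated animals 1 to 4. Treated animals 1 and 4 were the highest, 2 and 3 were lower, and none overlapped the vehicle group. The difference of 2.76 ± 0.51 is a 6.76-fold increase (limma adjusted p = 0.000356). Cyclin D1, encoded by Ccnd1, carries cells from G1 into S phase. It stood at 9.26, 9.45, 9.82 and 9.75 in the vehicle animals and at 12.80, 11.94, 11.52 and 12.66 in the treated animals. The groups did not overlap, and the signal rose 6.33-fold (2.66 ± 0.42, limma adjusted p = 5.31e-05). Uap1l1, a relative of the enzyme that makes the activated amino sugar UDP-N-acetylglucosamine, read 8.10, 7.98, 8.08 and 8.12 with vehicle and 11.10, 9.79, 10.24 and 10.76 with the drug. Its vehicle values were nearly the same, every treated animal lay well above them, and the difference was 2.40 ± 0.25 (limma adjusted p = 4.69e-07).

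The deepest decreases were those of Arntl, a clock gene, Elovl3, a clock output gene, and Mup10. Mup10 encodes a major urinary protein, a pheromone carrier made by hepatocytes. It measured 8.84, 8.66, 8.64 and 8.78 in the vehicle animals and 5.72, 6.87, 4.58 and 7.11 in the treated ones. The treated values were widely spread but all lay below the vehicle group (-2.66 ± 0.60, limma adjusted p = 0.00203). The family has many near-identical members, so the probe set may read several of them. Slc30a10, a manganese exporter of hepatocytes and bile ducts, fell by 1.63 ± 0.20 on the log2 scale (limma adjusted p = 3.15e-06).

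**Figure D2:**
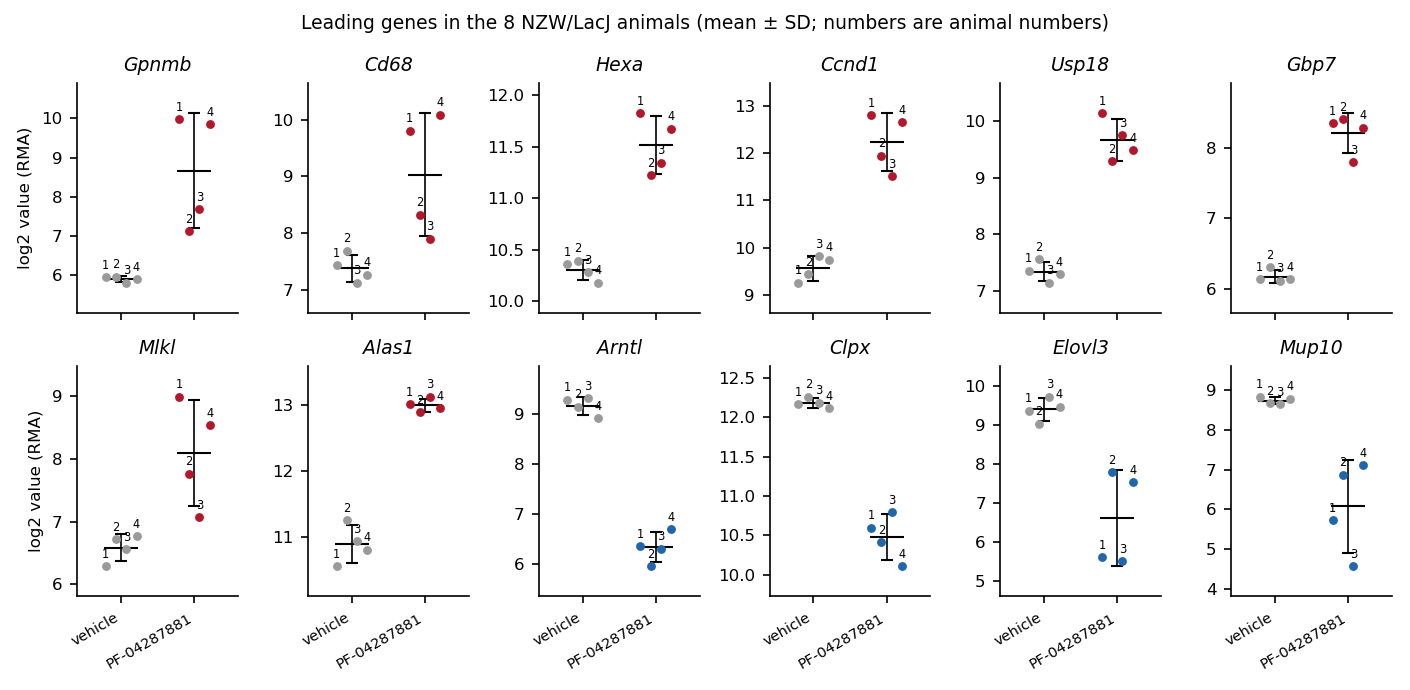
Each point is the log2 signal of 1 gene in 1 NZW/LacJ animal, with the 4 vehicle and the 4 treated animals side by side, numbered by animal, and bars at each group's mean ± SD. Gpnmb spans 7.12 to 9.98 among treated animals while its vehicle values lie between 5.80 and 5.96, and no gene shown has overlapping groups.

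Macrophage genes moved with the drug. Of 16 markers of monocytes and lipid-associated macrophages tested, 9 rose, none fell and the median difference was 1.34, against 0.02 over all genes. Cd68, a lysosomal glycoprotein of macrophages, was 7.43, 7.69, 7.12 and 7.26 with vehicle and 9.81, 8.32, 7.90 and 10.09 with the drug. Treated animals 1 and 4 again stood above 2 and 3, and the groups did not overlap (1.66 ± 0.41, limma adjusted p = 0.0043). Lyz2, the lysozyme of myeloid cells, rose by 1.46 ± 0.29 from 9.70, 9.97, 9.78 and 9.43 to 11.88, 10.58, 10.13 and 12.11. Lgals3 (galectin-3), the tetraspanin Cd9 and the lipid chaperone Fabp5 rose by 1.91 ± 0.39, 1.73 ± 0.35 and 1.82 ± 0.43. Markers of resident Kupffer cells gave a less firm picture: 4 of 21 rose, with a median of 0.47. Nr1h3, the oxysterol receptor LXR alpha, rose by 0.24 and Il18bp, a decoy receptor for interleukin-18, by 0.87. Clec4f and Vsig4, receptors restricted to Kupffer cells, also passed, at 0.80 and 0.78, but did not with any of vehicle animals 1, 3 or 4 or treated animals 1 or 4 left out (limma adjusted p up to 0.145 and 0.179). Timd4 and Cd5l, which mark the embryonically seeded Kupffer cells, differed by 0.97 and 0.83 without passing (limma adjusted p = 0.0518 and 0.0580). The Kupffer count was 2 without any of vehicle animals 1, 3 or 4 or treated animals 1 or 4, and 12 without treated animal 3, and it was 7 without the array in doubt. In whole liver, more cells of a type and more RNA per cell cannot be told apart.

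Few markers of the other cell types that a liver lobe holds passed. None of 9 neutrophil, 3 T cell, 7 natural killer and 8 B cell markers passed in either direction by limma, and 0, 1, 1 and 0 of them had an unadjusted p under 0.05. Of 17 T cell markers listed, only those 3 were bright enough to test. Without treated animal 3, 2 natural killer markers rose. Of 9 dendritic cell markers 2 rose, Irf8 and Bst2, both of which are also interferon-inducible. Among 20 sinusoidal endothelial markers 16 were lower in the treated group, and the median was -0.19. Of these, the receptor Gpr182 fell by 0.82 and Tek, the angiopoietin receptor, by 0.70, while Stab2, a scavenger receptor, rose by 0.57 ± 0.16. The number that fell was 1 without any of vehicle animals 1 to 3 or treated animals 1 or 2, 0 without treated animal 3, 6 without treated animal 4 and 4 without the array in doubt. None of 17 stellate cell and fibroblast markers passed by limma, and 2 had an unadjusted p under 0.05, while 2 and 3 rose without treated animals 2 and 3. Their mean deviation from the vehicle mean was 0.45, -0.27, -0.59 and 0.96 in treated animals 1 to 4, high in animals 1 and 4 and low in 2 and 3. The Kupffer markers deviated in the same order, by 0.66, 0.22, -0.32 and 1.10, and the monocyte and lipid-associated macrophage markers by 1.60, 0.58, 0.38 and 1.62. Genes of the extracellular matrix followed, at 0.54, -0.17, -0.35 and 0.90, and 5 of 29 rose, near the 15.1% of all genes. That count was 0 without treated animal 1 or 4, 1 to 3 without any 1 vehicle animal and 7 without treated animal 2 or 3. The part of cell composition in the changes below was not tested.

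**Figure D3:**
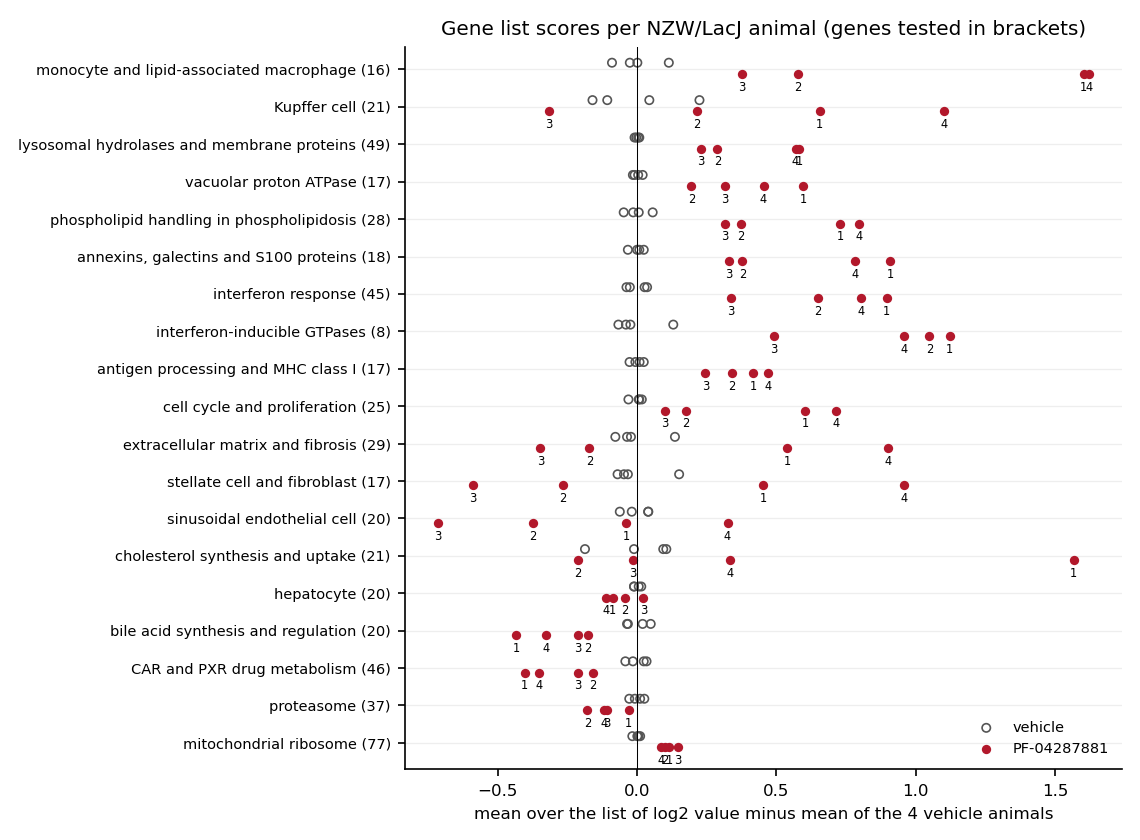
Each point is 1 treated NZW/LacJ animal's mean log2 deviation from the vehicle mean over the tested members of a gene list (horizontal axis), with 1 row per list, the number of genes tested in brackets and the 4 vehicle animals as open circles. Macrophage markers span 0.38 to 1.62 and lysosomal genes 0.23 to 0.58, while hepatocyte markers stay between -0.11 and 0.02.

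Genes of the lysosome rose with the drug. Of 49 lysosomal hydrolases and membrane proteins, 26 rose and none fell, with a median of 0.36, and in 30 all treated animals exceeded all vehicle animals. Without treated animal 4 there was 1 that fell. Hexa, which removes amino sugars from gangliosides, was 10.36, 10.39, 10.28 and 10.18 with vehicle and 11.82, 11.22, 11.35 and 11.68 with the drug. All treated values lay above the vehicle range, and Hexa rose 2.32-fold (1.21 ± 0.16, limma adjusted p = 8.79e-06). Arsa, the sulfatase that degrades sulfatide, was 9.15, 8.81, 8.94 and 9.22 against 10.69, 10.19, 9.82 and 10.31. It rose by a like amount without overlap (1.22 ± 0.17, limma adjusted p = 1.77e-05). The protective protein cathepsin A (Ctsa), the sialidase Neu1 that it stabilises and the ceramidase Asah1 rose by 0.78, 0.74 and 0.70. The cholesterol exporters Npc1 and Npc2 rose by 0.52 and 0.58, and Lamp1, an abundant protein of the lysosomal membrane, by 0.31. Cln6, an endoplasmic reticulum protein needed for lysosomal enzymes to reach lysosomes, rose by 1.90 ± 0.38. Averaged over the list, the treated animals deviated by 0.58, 0.29, 0.23 and 0.57, again highest in animals 1 and 4.

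The vacuolar ATPase and lysosomal signalling moved the same way. Of 17 subunits of the pump and its accessory proteins, 11 rose and none fell, with a median of 0.38. Atp6v0b, part of the membrane ring, was 10.44, 10.32, 10.50 and 10.52 with vehicle and 11.59, 10.95, 11.09 and 11.10 with the drug. Treated animal 1 was the highest, and the groups did not overlap (0.74 ± 0.19, limma adjusted p = 0.00553). The count of subunits that rose fell to 5 without treated animal 1 and to 6 when the arrays were quantile normalized again. Rragd, a GTPase that links lysosomal nutrient status to the mTORC1 kinase, was 6.34, 6.57, 6.68 and 6.80 against 9.72, 7.54, 8.12 and 8.42. All treated animals exceeded the vehicle group, animal 1 by the widest margin (1.85 ± 0.38, limma adjusted p = 0.000875). Its partner Fnip2, of the folliculin complex, rose by 1.30 ± 0.21. Autophagy genes as a whole stayed near the background, with 5 of 39 higher, 1 lower and a median of 0.10. The number lower was 0 without treated animal 4, 2 without treated animal 3 and 3 without the array in doubt.

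Of 28 genes that handle phospholipids or have been tied to phospholipidosis, 12 rose and none fell, and the median was 0.52. Pla2g15, the lysosomal phospholipase whose inhibition causes phospholipid storage, rose by 0.64 ± 0.14. Anxa5, a protein that binds exposed phosphatidylserine, and the scramblase Plscr1 rose by 1.55 ± 0.23 and 1.22 ± 0.17. Gpnmb, Fabp5, Asah1, Npc1 and Npc2 belong to this list too, so it is not a separate count from those above. In 18 annexins, galectins and S100 proteins, 8 rose and none fell. Anxa2, which binds phospholipid in a calcium-dependent way, was 8.29, 8.37, 8.37 and 8.38 with vehicle and 11.32, 9.47, 9.44 and 10.23 with the drug. The vehicle values were tight, treated animal 1 was the highest, and the difference was 1.76 ± 0.34 (limma adjusted p = 0.000474).

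Many interferon-inducible genes rose. Of 45 tested, 24 rose and none fell, the median was 0.62, and the treated animals deviated by 0.90, 0.65, 0.34 and 0.80 on average. Of 8 interferon-inducible GTPases 3 rose, and in 7 the treated animals all exceeded the vehicle animals. Promoters of Gbp7, Gbp3 and Ifih1 are shown because each holds the core letters of the response element and its gene rose without overlap. They run from 250 bases before to 50 bases after the annotated start, 5′ to 3′ on the strand of the gene, from RefSeq for GRCm38.p6. Capitals mark GAAANNGAAA, searched on both strands. Gbp7 lies at chr3:142530086-142530385 on the plus strand with the match at -53, Gbp3 at chr3:142559794-142560093 on the plus strand with overlapping matches at -45 and -39, and Ifih1 at chr2:62646206-62646505 on the minus strand with the match 32 bases past the start.
Gbp7: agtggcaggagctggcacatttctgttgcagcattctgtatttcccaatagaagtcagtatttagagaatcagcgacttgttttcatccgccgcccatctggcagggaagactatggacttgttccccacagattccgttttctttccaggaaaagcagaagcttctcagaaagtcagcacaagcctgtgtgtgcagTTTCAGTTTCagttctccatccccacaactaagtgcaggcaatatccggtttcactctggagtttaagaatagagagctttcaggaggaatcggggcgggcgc
Gbp3: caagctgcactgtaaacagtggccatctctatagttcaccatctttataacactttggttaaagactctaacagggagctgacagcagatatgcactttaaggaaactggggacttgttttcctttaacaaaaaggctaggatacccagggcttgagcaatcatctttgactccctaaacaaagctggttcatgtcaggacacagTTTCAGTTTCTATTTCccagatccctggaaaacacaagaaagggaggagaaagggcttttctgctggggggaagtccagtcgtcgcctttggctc
Ifih1: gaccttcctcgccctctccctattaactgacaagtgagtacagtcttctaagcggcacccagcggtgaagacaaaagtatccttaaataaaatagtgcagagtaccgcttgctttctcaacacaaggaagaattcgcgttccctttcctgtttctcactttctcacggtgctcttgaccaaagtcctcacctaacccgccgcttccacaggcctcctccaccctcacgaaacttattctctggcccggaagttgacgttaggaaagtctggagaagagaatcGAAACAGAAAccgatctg
The core occurred in 3.52% of the 10397 tested genes whose promoter was in the table, in 12 of 33 matched interferon genes (36.4%) and in all 6 matched GTPases. Members that hold it include genes that did not pass, such as Ifit1, Oas3, Rsad2, Igtp and Irgm1.

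Gbp7, a guanylate-binding protein that acts on pathogen-containing vacuoles, was 6.14, 6.31, 6.12 and 6.13 with vehicle and 8.35, 8.41, 7.80 and 8.29 with the drug. All treated animals lay far above the vehicle group, and the difference was 2.04 ± 0.33 (limma adjusted p = 8.38e-05), against 0.82 by its other probe set. Gbp3, of the same family, was 7.32, 7.38, 7.49 and 7.40 against 8.93, 8.43, 7.76 and 9.07. Treated animal 3 stood closest to the vehicle values (1.15 ± 0.23, limma adjusted p = 0.000899). Ifih1, the MDA5 sensor of double-stranded RNA, was 9.34, 9.24, 9.37 and 9.40 against 10.39, 10.28, 10.18 and 10.30. The 4 treated values were close together and none overlapped (0.95 ± 0.16, limma adjusted p = 8.94e-05). Gbp2 rose by 1.15 but did not pass without any of vehicle animals 1 to 4 or treated animals 1, 2 or 4 (limma adjusted p up to 0.139). Gbp6 differed by 1.35 without passing (limma adjusted p = 0.0516).

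Among the remaining interferon genes, Usp18, the protease that strips ISG15 from proteins and damps interferon signalling, was 7.36, 7.55, 7.14 and 7.29 with vehicle and 10.13, 9.29, 9.75 and 9.48 with the drug. It rose 5.03-fold with no overlap (2.33 ± 0.48, limma adjusted p = 0.000898). Irf7, the master transcription factor of type I interferon production, was 7.38, 7.72, 7.70 and 7.63 against 9.84, 9.29, 8.99 and 9.86, a rise of 1.89 ± 0.35 (limma adjusted p = 0.00036). Ifi27l2b, an interferon-inducible membrane protein, was 7.94, 7.85, 7.85 and 7.79 against 10.08, 10.09, 9.54 and 10.23. Each of these genes was high in all 4 treated animals. Oas1a, which makes the second messenger that activates RNase L, and Rtp4 rose by 1.39 ± 0.27 and 1.44. Ifit1 and Cxcl10, also inducible by interferon, differed by 1.22 and 0.21 and did not pass (limma adjusted p = 0.0545 for Ifit1).

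In antigen processing, 5 of 17 genes of the MHC class I pathway rose. They were the immunoproteasome subunits Psmb8, Psmb9 and Psmb10 and the peptide transporters Tap1 and Tap2. Psmb9 was 8.50, 8.52, 8.73 and 8.52 with vehicle and 9.86, 10.06, 9.55 and 10.38 with the drug, without overlap (1.40 ± 0.27, limma adjusted p = 0.000531). Psmb10 rose by 1.17 ± 0.17 and Psmb8 by 0.87. A second probe set for Tap1 differed by -0.01, so its rise of 0.61 rests on 1 probe set, and it did not pass without vehicle animal 4 or treated animal 4 (limma adjusted p up to 0.0707). In MHC class II presentation 1 of 9 genes passed, the protease Ctss, at 1.08, and it did not without treated animal 1 or 4 (limma adjusted p up to 0.0796).

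The clock genes moved in both directions. Of 19 tested, 4 rose and 4 fell, and in 13 the groups did not overlap. The genes that fell form the activating arm and 1 repressor. Arntl, which encodes BMAL1, was 9.29, 9.15, 9.32 and 8.92 with vehicle and 6.37, 5.97, 6.32 and 6.71 with the drug. Every treated animal lay more than 2 log2 units below every vehicle animal, and the signal fell to 0.141 of the vehicle level (-2.83 ± 0.29, limma adjusted p = 4.37e-07). This rests on the brighter of 2 probe sets: the other, with a vehicle mean of 7.56, differed by -0.01 with overlapping groups. Clock, the partner of BMAL1, was 9.07, 9.03, 9.17 and 9.11 against 8.55, 8.38, 8.23 and 8.35. That decrease was small but equally clear of overlap (-0.72 ± 0.10, limma adjusted p = 2.58e-05). Npas2, which can replace Clock, fell by 0.87 ± 0.21 on the log2 scale, from 6.63, 6.67, 6.63 and 6.59 to 6.0, 5.51, 6.01 and 5.53. The repressor Cry1 was 8.26, 8.38, 7.96 and 7.76 against 6.64, 7.15, 7.16 and 7.40, lower in each treated animal (-1.0 ± 0.25, limma adjusted p = 0.00508).

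The genes that rose are targets and repressors of that arm. Dbp, a transcription factor that binds D-box elements, was 10.05, 9.92, 10.00 and 10.41 with vehicle and 11.65, 12.11, 11.70 and 11.73 with the drug. The treated animals lay together and above the vehicle group (1.70 ± 0.51, limma adjusted p = 0.0167). Per3 was 8.38, 8.27, 8.42 and 8.42 against 8.89, 9.61, 9.60 and 9.39, again with no overlap (1.00 ± 0.28, limma adjusted p = 0.0121), and its 5 other probe sets above the filter differed by 0.03 to 0.83. Per1 and Tef also rose, by 1.62 and 0.64, but Per1 lost its call without any of vehicle animals 1, 3 or 4 or treated animals 1, 3 or 4, and Tef without any 1 of the 8 animals (limma adjusted p up to 0.109 and 0.119). The count of clock genes that rose was thus 2 in 6 of the 8 fits that left out an animal. Among the 11 clock genes that did not pass, Ciart, Bhlhe40 and Cry2, all repressors of ARNTL and CLOCK, differed by 0.76, 0.62 and 0.51 with no overlap between the groups. Nr1d1, the REV-ERB alpha receptor that represses Arntl, differed by -0.27 and Per2 by 0.30, and both overlapped.

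The promoters of Per3, Cry1 and Coq10b are shown because these genes of the clock and its output rose or fell and hold the letters that clock proteins are known to bind. Capitals mark the E-box CACGTG, which reads the same on both strands and is bound by ARNTL with CLOCK, and the D-box TTATGTAA, searched on both strands. The Per3 window is chr4:151044616-151044915 on the minus strand, with D-box matches at -205 and -158. The Cry1 window is chr10:85185005-85185304 on the minus strand, with an E-box at -60, and the Coq10b window is chr1:55052520-55052819 on the plus strand, with a D-box at -162 and an E-box at -78.
Per3: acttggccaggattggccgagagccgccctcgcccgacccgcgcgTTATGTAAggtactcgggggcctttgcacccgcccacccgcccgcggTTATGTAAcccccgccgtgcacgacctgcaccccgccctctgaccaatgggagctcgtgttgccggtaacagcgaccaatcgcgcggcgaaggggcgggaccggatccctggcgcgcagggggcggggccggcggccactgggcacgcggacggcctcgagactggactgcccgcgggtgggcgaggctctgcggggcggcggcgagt
Cry1: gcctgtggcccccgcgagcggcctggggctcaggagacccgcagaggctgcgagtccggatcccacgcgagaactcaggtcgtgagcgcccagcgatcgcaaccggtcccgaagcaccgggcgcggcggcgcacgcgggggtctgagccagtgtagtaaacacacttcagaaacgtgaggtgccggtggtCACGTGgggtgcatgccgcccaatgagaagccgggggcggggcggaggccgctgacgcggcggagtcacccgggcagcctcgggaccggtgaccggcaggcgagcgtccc
Coq10b: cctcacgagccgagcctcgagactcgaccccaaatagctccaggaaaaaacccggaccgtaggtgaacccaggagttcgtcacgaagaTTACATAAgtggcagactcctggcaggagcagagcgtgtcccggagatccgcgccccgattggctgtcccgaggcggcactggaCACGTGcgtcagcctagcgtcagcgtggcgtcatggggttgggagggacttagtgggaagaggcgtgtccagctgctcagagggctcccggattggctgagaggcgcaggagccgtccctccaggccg
The E-box occurred in 11.3% of promoters of the genes tested, in 4 of 16 matched clock genes (25.0%) and in 6 of 21 matched output genes (28.6%). Holders that did not pass were Ciart among clock genes and Tspan4, Slc16a12, Lonrf3 and Hsph1 among output genes. The D-box occurred in 0.712% of promoters of the genes tested, in 1 of 16 clock genes (6.25%) and in 2 of 21 output genes (9.52%). Cry1 fell and Coq10b rose with the same E-box letters in the window.

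**Figure D4:**
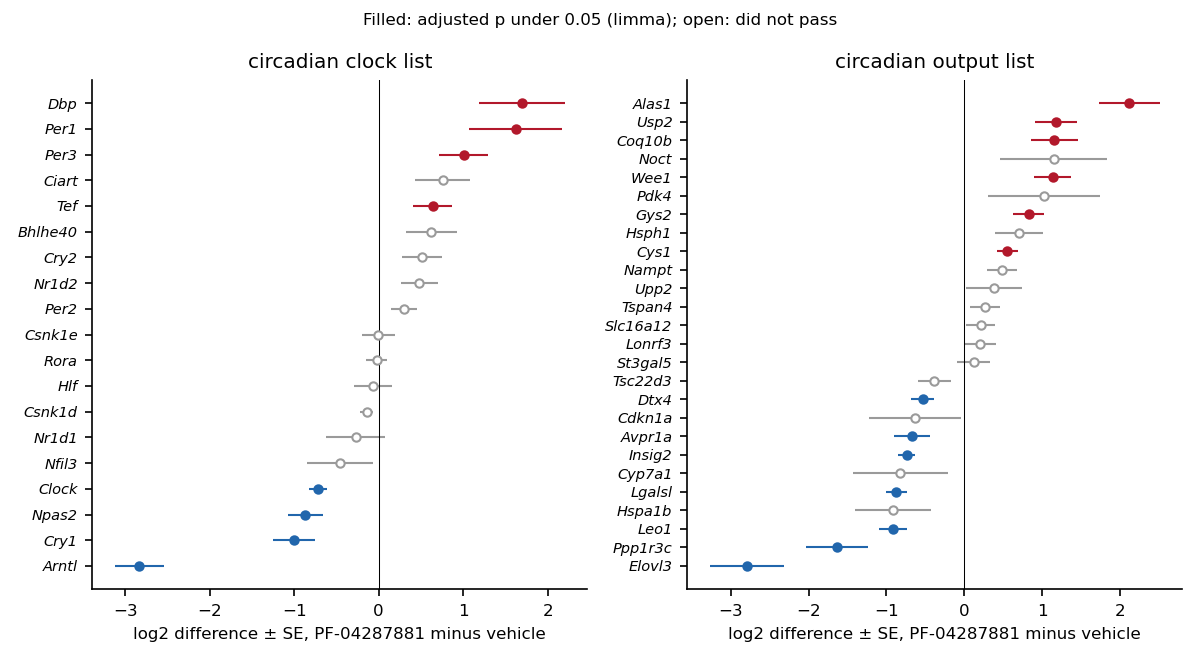
Each row is a gene of the circadian clock (left) or its output (right), with the log2 difference between 4 treated and 4 vehicle NZW/LacJ animals as a point and 1 standard error as a bar. Filled points passed at an adjusted p under 0.05, red higher and blue lower, and run from Arntl at -2.83 to Dbp at 1.70 among clock genes and from Elovl3 at -2.79 to Alas1 at 2.12 among output genes.

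Of 26 output genes of the liver clock, 6 rose and 7 fell. Elovl3, which elongates very long chain fatty acids and cycles strongly in liver, was 9.36, 9.03, 9.72 and 9.46 with vehicle and 5.60, 7.79, 5.49 and 7.53 with the drug. Treated animals 1 and 3 were the lowest, and none overlapped (-2.79 ± 0.48, limma adjusted p = 0.00016). Ppp1r3c, which targets a phosphatase to glycogen, fell by 1.63 ± 0.40 on the log2 scale, from 12.57, 12.18, 12.55 and 12.33 to 10.55, 11.35, 11.04 and 10.16. Coq10b, a protein of coenzyme Q function in mitochondria, was 9.38, 9.47, 9.53 and 9.74 against 10.07, 10.98, 10.46 and 11.24 (1.16 ± 0.30, limma adjusted p = 0.00682). The deubiquitinase Usp2 and the mitotic inhibitor Wee1 rose by 1.18 and 1.13, and Gys2, the liver glycogen synthase, by 0.83.

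In heme synthesis the entry enzyme rose and a mitochondrial regulator of it fell. Alas1, the rate-limiting enzyme of heme synthesis, was 10.55, 11.25, 10.93 and 10.80 with vehicle and 13.02, 12.90, 13.14 and 12.96 with the drug. The treated animals lay close together and clear of the vehicle group, and the signal rose 4.34-fold (2.12 ± 0.39, limma adjusted p = 0.00029). Clpx, a mitochondrial unfoldase that takes part in the degradation of the ALAS1 protein, was 12.17, 12.26, 12.19 and 12.12 against 10.60, 10.41, 10.80 and 10.11. All treated values were lower by more than 1 log2 unit (-1.70 ± 0.13, limma adjusted p = 2.04e-09), and a far dimmer probe set differed by -0.49. Fech, which inserts iron in the last step of the pathway, rose by 0.32, and Blvra, which reduces biliverdin to bilirubin, by 0.47. The rise of Fech did not pass when a gene's probe sets were averaged. Of 34 genes of iron, heme and metal handling 8 rose and 1, Slc30a10, fell, or 13 and 3 without the array in doubt.

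Genes of cell death and of the cell cycle were examined because the strain was coded for single cell necrosis. Of 15 genes of necroptosis, pyroptosis and ferroptosis, 4 rose and none fell, and these 4 passed with any 1 animal left out. Mlkl, the pore-forming executioner of necroptosis, was 6.29, 6.72, 6.56 and 6.77 with vehicle and 8.99, 7.76, 7.07 and 8.54 with the drug. Treated animal 1 was the highest and animal 3 the nearest to the vehicle group (1.51 ± 0.30, limma adjusted p = 0.000808). Zbp1, a nucleic acid sensor upstream of necroptosis and itself interferon-inducible, rose by 0.54, the pyroptosis pore Gsdmd by 0.56 and the lipid peroxidase Gpx4, which protects from ferroptosis, by 0.45 ± 0.07. Bid, which links death receptors to mitochondria, was 6.83, 7.11, 7.05 and 7.10 against 9.05, 8.47, 8.55 and 8.36, without overlap (1.59 ± 0.35, limma adjusted p = 0.00192), and its 2 other probe sets differed by 0.66 and 0.68. Targets of p53 and apoptosis genes otherwise stayed near the background, with 3 of 32 higher and 1 lower, and the p53 target Cdkn1a differed by -0.63 without passing. The number higher was 5 without treated animal 2 and 7 without the array in doubt, and the number lower 0 without vehicle animal 1 or 4 or treated animal 1.

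Of 39 genes of the cell cycle listed, 25 were tested, of which 7 rose and none fell, or 1 fell without the array in doubt. The 7 included the replication factors Cdt1, Mcm2, Mcm4 and Mcm6. Rrm2, the lowest member, differed by -0.67 without passing. The proliferation markers Mki67, Ccnb1, Aurka and Aurkb were among the genes not tested. Mcm2, a subunit of the replicative helicase, was 7.69, 8.03, 7.78 and 7.63 with vehicle and 10.08, 8.72, 8.26 and 10.37 with the drug. Treated animals 1 and 4 were far above 2 and 3, and none overlapped (1.58 ± 0.32, limma adjusted p = 0.000846). Mcm6 rose by 1.64 ± 0.28 and Cdt1, which loads the helicase, by 1.23. The list deviated by 0.60, 0.18, 0.10 and 0.71 in treated animals 1 to 4, the order seen in the macrophage markers. Afp, a fetal liver protein, was 5.83, 6.06, 6.03 and 6.23 against 7.29, 6.98, 6.93 and 6.95. It doubled without overlap (1.00 ± 0.16, limma adjusted p = 5.92e-05), but differed by 0.15 without passing when its probe sets were averaged. Of 32 genes of injury, progenitor cells and regeneration 5 rose, near the 15.1% of all genes, and none fell (7 and 2 without the array in doubt). The hepatocyte keratin Krt8 rose by 0.85 and S100a6 by 1.22.

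Inflammatory signals were narrow. Of 31 cytokines, chemokines and receptors 4 rose, near the 15.1% of all genes, and none fell. Only 2 rose without vehicle animal 3 or treated animal 4. Il1rn, the natural antagonist of the interleukin-1 receptor, was 8.01, 8.15, 7.30 and 7.93 with vehicle and 9.19, 9.77, 9.20 and 9.78 with the drug. All treated animals lay above the vehicle group (1.64 ± 0.33, limma adjusted p = 0.000896), and its 2 other probe sets differed by 0.47 and 0.84. Vcam1, an adhesion molecule for leukocytes, rose by 1.59 ± 0.38. Acute phase proteins, which hepatocytes secrete in inflammation, gave 6 of 28 higher and 2 lower. Orm2 rose by 1.17 and Crp by 0.62 ± 0.10, Saa4 and the fibrinogen chain Fga fell by 0.76 and 0.17, and the neutrophil lipocalin Lcn2 differed by 0.73 without passing (limma adjusted p = 0.263). The number that fell was 0 without vehicle animal 1 or treated animal 1 or 4, 1 without vehicle animal 2 or 3 and 4 without the array in doubt.

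Drug-metabolising genes fell more often than they rose. The list held targets of the nuclear receptors CAR and PXR, the receptors themselves and other drug-metabolising enzymes. Of 46 genes tested, 5 rose and 13 fell and the median was -0.20. In 23 all treated animals lay below all vehicle animals. Cyp2b10, the classical CAR target among the cytochromes P450, was 9.05, 9.56, 8.66 and 9.13 with vehicle and 6.72, 7.61, 6.97 and 6.69 with the drug. None overlapped (-2.10 ± 0.61, limma adjusted p = 0.0139). Cyp3a16 and Cyp3a44, members of the Cyp3a family, fell by 1.87 ± 0.50 and 1.68 ± 0.32. These genes have close relatives, and a probe set may read more than 1 of them. Cyp3a16 was dim in both NZW/LacJ groups, with means of 5.72 with vehicle and 3.85 with the drug, below the median signal of 6.49. The flavin monooxygenases Fmo2 and Fmo5 rose by 1.11 and 0.53. The count that rose was 3 without vehicle animal 1 or treated animal 1.

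Of 24 hepatocyte transporters 8 rose and 1 fell, or 2 fell without vehicle animal 2 or treated animal 4. Abcb1b, a P-glycoprotein that pumps drugs out of cells, was 6.63, 6.75, 6.39 and 6.84 with vehicle and 8.45, 8.63, 7.60 and 8.65 with the drug. Treated animal 3 was the lowest of the treated group but above all vehicle values (1.68 ± 0.29, limma adjusted p = 0.00016). Abcc3, which exports conjugates into blood, rose by 0.64 ± 0.11, the organic anion importer Slco1a4 by 0.84 and the phospholipid flippase Atp8b1 of the bile canaliculus by 0.81. In bile acid synthesis 4 of 20 genes fell and none rose. Cyp27a1, the sterol 27-hydroxylase of the alternative route, fell by 0.66 ± 0.08 on the log2 scale, and the carboxylesterase Ces2a by 0.87. Cyp7a1, the rate-limiting enzyme of the classical route, differed by -0.82 without passing (limma adjusted p = 0.37). The bile acid count was 2 without vehicle animal 1, 3 or 4 or treated animal 1, and 7 without the array in doubt. Of 37 genes of the NRF2 antioxidant response 7 rose and 3 fell, against 15.1% and 6.4% of all genes. The 7 became 3 or 4 without any 1 vehicle animal and without treated animal 1 or 3. The 3 that fell became 1 without any 1 vehicle animal or treated animal 2 or 4. Ptgr1, a prostaglandin reductase outside that list, rose by 2.21 ± 0.28.

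Lipid metabolism changed gene by gene. In fatty acid oxidation 3 of 40 genes rose and 7 fell, with a median of 0.02, and 1 rose without treated animal 4. Acot1, a cytosolic acyl-CoA thioesterase, was 10.98, 11.63, 10.83 and 11.15 with vehicle and 7.50, 9.57, 9.0 and 10.00 with the drug. Treated animal 1 was the lowest, and none overlapped (-2.13 ± 0.33, limma adjusted p = 5.31e-05). Acot2, its mitochondrial relative, was 10.94, 11.50, 11.23 and 11.16 against 8.32, 9.74, 9.05 and 10.17 (-1.89 ± 0.30). A second Acot2 probe set, with a vehicle mean of 10.55, differed by -0.08 with overlapping groups. The peroxisomal enzyme Ehhadh fell by 1.04. In lipogenesis 2 of 32 rose and 5 fell, among them malic enzyme (Me1) and the phosphatidic acid synthase Agpat2, by 0.84 and 0.88, while Cideb, which helps to lipidate lipoproteins, rose by 0.78 ± 0.11. The number of lipogenic genes that rose was 1 without any of vehicle animals 1 to 3 or treated animals 1 or 4, and 4 without the array in doubt. Of 21 genes of cholesterol synthesis 1 passed, Srebf2, and the treated animals deviated by 1.57, -0.21, -0.01 and 0.33, so that animal 1 stood alone. Srebf2 did not pass without vehicle animal 2 or treated animal 1, and 2 genes of the list passed without treated animal 2 or without the array in doubt.

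In glucose metabolism 8 of 28 genes rose and 2 fell, with Gckr, the regulatory protein of glucokinase, at 1.06 ± 0.18 and Pdk2, which restrains pyruvate dehydrogenase, at 0.78. The number that fell was 1 without vehicle animal 2 or treated animal 1 or 4. Of 43 genes of the urea cycle and amino acid breakdown 2 rose and 4 fell, with the glycine decarboxylase Gldc falling by 0.92 and Tdo2, which opens the tryptophan ring, by 0.42. The count that fell was 2 without treated animal 4. The count that rose was 0 without vehicle animal 2, 1 without vehicle animal 1 or 3 or treated animal 2, 3 or 4, and 4 without the array in doubt. In the respiratory chain 2 of 66 rose and 1 fell, the median was 0.01, and the treated animals deviated by -0.04 to 0.08. Of these few calls, the rises numbered 0 without any 1 vehicle animal or treated animal 1 or 3 and 1 without treated animal 2 or 4. The fall was lost without vehicle animal 2, 3 or 4 or treated animal 1, and 3 genes fell without the array in doubt.

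Protein turnover and the mitochondrial ribosome showed small shifts whose counts moved with the scaling. Of 37 proteasome subunits 10 fell and none rose, with a median of -0.11, and the count was 7 with arrays centred on their medians and 14 with arrays quantile normalized again. Psmc1, an ATPase of the regulatory particle, was 11.20, 11.31, 11.16 and 11.18 with vehicle and 10.71, 10.44, 10.67 and 10.70 with the drug, without overlap (-0.58 ± 0.09, limma adjusted p = 2.89e-05). In the unfolded protein response 6 of 42 genes fell and 1 rose. Dnajb9, a chaperone of the endoplasmic reticulum, fell by 0.81 ± 0.11 on the log2 scale, and Syvn1, the ubiquitin ligase that clears misfolded proteins there, by 0.72. The count that fell was 3 without vehicle animal 2 or 4 or treated animal 2 or 4, and the gene that rose did not without any 1 vehicle animal or treated animal 1 or 3. Of 77 mitochondrial ribosomal proteins 16 rose and 1 fell, with a median of 0.07. The number that fell was 0 without vehicle animals 2, 3 or 4 or treated animals 1, 2 or 3, and 2 without the array in doubt. After a further quantile normalization 9 rose and 7 fell and the median was -0.03, so the direction of that list depends on the scaling. Mrps6 rose from 9.06, 9.04, 9.12 and 9.14 to 10.11, 9.93, 9.76 and 10.19 (0.90 ± 0.15, limma adjusted p = 0.000135).

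The NZW/LacJ effect was then set against the mean effect of the other 3 strains, each against its own vehicle group, by a contrast in the same limma model. It was more positive for 1457 genes (11.3%) and more negative for 490 (3.8%), or for 2014 (15.6%) and 790 (6.13%) without the array in doubt. Il1rn gave the largest positive difference among the named genes, at 2.26 ± 0.39 (limma adjusted p = 0.000251). Its effect was 1.64 in NZW/LacJ, -0.24 in MA/MyJ, 0.19 in SM/J and -1.82 in WSB/EiJ, or -1.52 in WSB/EiJ without the array. Gbp7 differed by 2.19 ± 0.39, with effects of 2.04, 0.52, 0.29 and -1.28 in the same order, or -0.92 in WSB/EiJ without the array. Both genes fell in WSB/EiJ, which enters the mean, and did not pass in MA/MyJ or SM/J. Ccnd1 differed by 2.23 ± 0.48, yet it was also high in MA/MyJ, at 2.03, and its difference from MA/MyJ and SM/J alone was 1.38 without passing (limma adjusted p = 0.109). Tgm1, a transglutaminase, differed by 1.76, with effects of 1.77, -0.20, 0.88 and -0.64. The death genes Mlkl, Bid and Gsdmd differed by 1.47, 1.38 and 0.72, and Afp by 0.92 ± 0.18. All of these differences apart from that of Ccnd1 against MA/MyJ and SM/J alone passed, also with the array in doubt left out. Afp also rose in MA/MyJ, by 0.83.

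**Figure D5:**
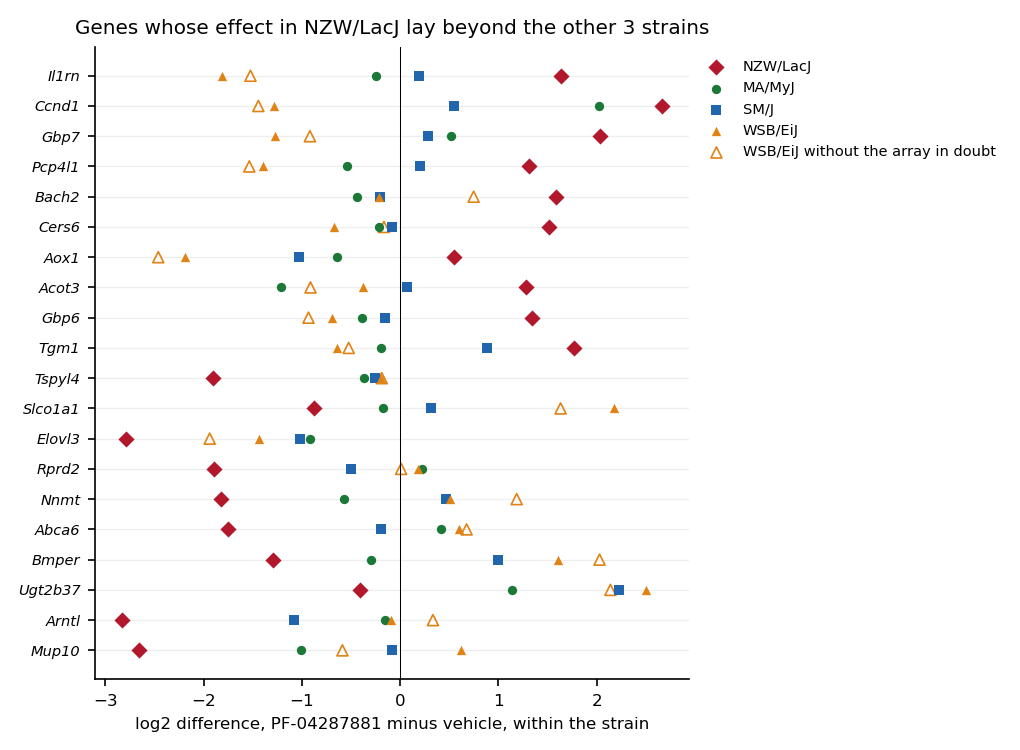
For the genes that differ most from the other strains, each marker is the drug effect (log2, treated minus vehicle) in 1 strain, with NZW/LacJ set apart by colour and WSB/EiJ also shown without the array in doubt. Arntl lies at -2.83 in NZW/LacJ and between -1.08 and 0.33 elsewhere.

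On the negative side, Arntl differed by -2.39 ± 0.34 (limma adjusted p = 3.48e-05), with effects of -2.83, -0.15, -1.08 and -0.09 in NZW/LacJ, MA/MyJ, SM/J and WSB/EiJ, or 0.33 in WSB/EiJ without the array in doubt. Clpx differed by -1.31 ± 0.15 (limma adjusted p = 3.49e-06) and Alas1, its counterpart in heme synthesis, by 1.72 (limma adjusted p = 0.00983). Mup10 differed by -2.50, but did not pass without treated animal 3 (-2.01, limma adjusted p = 0.0533) or against MA/MyJ and SM/J alone (-2.12, limma adjusted p = 0.0835). Abca6, a lipid transporter of the ABC family, and Tspyl4, of the nucleosome assembly protein family, differed by -2.02 and -1.64. Rprd2, a partner of RNA polymerase II, differed by -1.87, though its other probe sets above the filter showed NZW/LacJ effects of -0.06 to 0.00. Ugt2b37, a glucuronosyltransferase, differed by -2.36. It rose in SM/J and WSB/EiJ, by 2.22 and 2.50, while its values of 1.13 in MA/MyJ and -0.41 in NZW/LacJ did not pass (limma adjusted p = 0.672 in NZW/LacJ). Its difference did not pass without vehicle animal 1 or treated animal 3 (limma adjusted p up to 0.0624).

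Many of the strongest NZW/LacJ changes did not pass as different from the other strains. Gpnmb differed by 1.07 without passing (limma adjusted p = 0.253), and none of the 16 monocyte and lipid-associated macrophage markers passed by limma, with 0 of them at an unadjusted p under 0.05. Of 49 lysosomal genes 6 were more positive, of 17 subunits of the proton pump 1, and of 45 interferon genes 9, against 11.3% of all genes. Without the array in doubt these were 6, 2 and 10, and 2 lysosomal genes were more negative. The median effect of the macrophage list was 1.34 in NZW/LacJ, 1.29 in MA/MyJ, 0.38 in SM/J and 0.53 in WSB/EiJ. That of the interferon list was 0.62, 0.28, 0.16 and 0.12. Mitochondrial ribosomal proteins gave 19 of 77 more positive, or 28 without the array, and proteasome subunits 8 of 37, or 12. The proteasome medians were -0.11 in NZW/LacJ, -0.04 in MA/MyJ, -0.28 in SM/J and -0.41 in WSB/EiJ.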

How the data were processed

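Liver RNA from 31 female mice of 4 strains was hybridised after a single round of amplification, 1 array per animal. The deposited values are log2 signals that the authors obtained by RMA with Affymetrix Power Tools, per the submitters' processing notes. Their versions are not given in the sources used here. Array medians lay between 6.43 and 6.54, and no scanner files were used here.

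Probe sets were named through GEO's platform annotation and RefSeq for GRCm38.p6: of 44721, 34728 had 1 symbol, 872 several and 9121 none. A gene with several probe sets was read from its brightest one, by the mean signal of the 31 arrays, and 12890 of 18147 genes exceeded the median signal of 6.49 in at least 3 arrays. limma 3.58.1 in R 4.3.3 was fitted to all 31 arrays as 8 group means, with Benjamini-Hochberg adjustment. On simulated data with 100 genes changed by 1 log2 unit and 100 by 0.5, the NZW/LacJ comparison recovered 92 and 57, with 7 false calls among 156. The simulated noise was independent between genes and had the same spread in every group, unlike the data. Those counts therefore do not give the share of false calls among the genes called here.

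The animals, the 51 gene and marker lists and the rule for named genes were chosen with earlier results of these data known, so no list is independent evidence. The rule named 200 genes, without predicted and clone names: the 14 largest effects each way whose groups did not overlap, the 10 largest strain differences each way where NZW/LacJ lay beyond every other strain, and up to 4 called members of each list each way, or the 2 largest where none passed. A further 41, Lyz2, Ctsa and Ifih1 among them, and the other members given with a value were named after their values were seen. Alternatives changed the filter, the probe set rule, the scaling, the moderation, the arrays fitted and the animals included.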

Additional observations from a re-analysis of the deposited data

Results flagged for a closer look

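In 10 of 314 groups of 4 animals checked, 1 animal stood apart from the other 3 by more than Dixon's limit for 4 samples, and chance flags about 1 group in 20. Among treated animals these were Afp in animal 1, the highest at 7.29, Pdk2 in animal 1, the lowest at 10.7, and Psmc1 in animal 2, the lowest at 10.44. Among vehicle animals they were Anxa2 in animal 1, the lowest at 8.29, Gldc in animal 2, the lowest at 11.92, and Csf2rb in animal 4, the lowest at 8.06. Gbp7 in animal 2 was the highest at 6.31, Psmb9 in animal 3 at 8.73, Saa4 in animal 1 at 11.85 and Rprd2 in animal 2 at 10.46.

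For 69 of the 157 genes named, the NZW/LacJ effect differed from the mean effect of the other 3 strains in the limma contrast. The values that follow are that difference in log2 units. Among immune and interferon genes it was 2.26 for Il1rn, 2.19 for Gbp7, 1.76 for Gbp6, 1.32 for Psmb9, 1.07 for Oas1a, 1.05 for Csf2rb, 1.03 for Psmb10, 1.00 for Plscr1, 0.76 for Ifih1 and 1.35 for the B cell adaptor Blnk. Among cell cycle, repair and death genes it was 2.23 for Ccnd1, 1.74 for Brca1, 1.55 for Mcm2, 1.47 for Mlkl, 1.39 for Smc2, 1.38 for Bid, 1.22 for Dclre1a, 1.15 for Ncapg, 1.10 for Mcm4, 0.72 for Gsdmd and 0.30 for Gpx4. Injury and cytoskeletal genes gave 0.92 for Afp, 1.76 for Tgm1, 1.63 for Ablim1, 1.24 for Myo18a, 1.15 for Actn1 and 1.03 for Inf2. Lysosomal, lipid and amino-sugar genes gave 0.81 for Fnip2, 0.53 for Pla2g15, 0.38 for Npc1, 0.46 for Nr1h3, 0.50 for Srebf2, 0.69 for Cideb, 1.31 for Fabp7, 1.84 for Cers6, 0.88 for Uap1l1, 1.08 for Nagk, 1.04 for Pgm3, 0.82 for Amdhd2 and 0.75 for Gne.

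Heme, mitochondrial, redox and glucose genes gave 1.72 for Alas1, 0.55 for Fech, 0.42 for Blvra, 1.03 for Coq10b, 0.83 for Mrps6, 1.34 for Ptgr1, 1.03 for Mgst3, 0.73 for Gckr and 0.50 for Pdk2. Transporters and secreted or other proteins gave 1.04 for Atp8b1, 0.69 for Abcc3, 0.65 for Crp and 1.90 for Pcp4l1. On the negative side, clock genes gave -2.39 for Arntl, -1.20 for Cry1, -0.36 for Clock and -1.67 for Elovl3. Metabolic genes gave -2.36 for Ugt2b37, -2.02 for Abca6, -1.56 for Cyp3a44, -1.43 for Acot1, -1.31 for Clpx, -0.65 for Cyp27a1 and -0.36 for Tdo2. Other negative values were -2.50 for Mup10, -1.87 for Rprd2, -1.64 for Tspyl4, -0.72 for Dnajb9 and -0.59 for Syvn1. The effect of leaving out an animal on this call was looked at only in the genes named for their strain difference. Among those, Elovl3 and Gbp6 each lost the call with any of 6 animals left out, Ugt2b37 with either of 2 and Mup10 with 1. The other differences given here were not checked in that way.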

How the results depend on the processing

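The count of 2766 genes kept within 1.5 times under every alternative run except array weights, with 4418, and ranged from 2052 to 2595 with 1 NZW/LacJ animal left out. The 825 genes that fell became 1548 with arrays quantile normalized again, 1552 with array weights and 1363 with NZW/LacJ arrays only. The 1947 genes that differed from the other strains became 3634 with array weights and 826 against MA/MyJ and SM/J only, and ranged from 1463 to 1826 with 1 animal left out. Of these, the genes higher became 2386 and 627. The 490 lower became 790 without the array in doubt, 856 with arrays quantile normalized again, 1248 with array weights and 199 against MA/MyJ and SM/J only. Animal numbers did not pair the samples, since the correlations of same-numbered animals were -0.0405, -0.101, -0.0532 and -0.0706. A fit with the replicate number as a block gave 2365 changed genes, and 1468 differing from the other strains, of which 322 were lower. The causes were not tested.

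Of 261 gene results, 168 kept their direction and their side of the threshold under every alternative run for them (up to 19 for the drug effect and 18 for the strain difference), and of the 247 past the threshold 176 did so with any 1 animal left out. The value of Ugt2b37 in NZW/LacJ, which did not pass, ranged from -0.84 to 0.18 with 1 animal left out, and was above 0 without treated animal 3. Nr1h3, at 0.13, and Srebf2, at 0.30, did not pass with arrays quantile normalized again, nor Il18bp and Mcm4 with NZW/LacJ arrays only. Tap1, at 0.06, and Tef, at 0.22, did not pass when a gene's probe sets were averaged. Of 92 named genes with a further probe set above the filter, 78 had none of opposite sign. Smaller differences by another probe set were 0.13 for Ctsa, 0.23 for Atp6v0b, 0.14 for Vcam1, 0.08 for Fmo2, 0.45 for Wee1 and -0.26 for Syvn1.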

Other observations

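Some of the genes with the clearest NZW/LacJ changes fell outside the lists and were named after their values were seen, so they carry no count or test as groups. Several act on amino sugars, like Uap1l1. Nagk, the kinase that salvages N-acetylglucosamine from lysosomal breakdown, was 8.73, 8.80, 8.63 and 8.67 with vehicle and 10.37, 9.65, 9.80 and 10.25 with the drug (1.31 ± 0.16). Amdhd2, which removes the acetyl group from N-acetylglucosamine phosphate, rose by 1.31 ± 0.16 and Pgm3, the mutase of the same route, by 1.14 ± 0.19. Renbp and Gne, which act on the path to sialic acid, rose by 1.10 and 1.01.

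Genes of DNA repair and chromosome structure also rose. Brca1, of homologous recombination, was 5.79, 6.62, 6.24 and 6.32 with vehicle and 7.83, 8.06, 8.04 and 7.78 with the drug (1.68 ± 0.26), while its other probe sets above the filter differed by -0.12 and 0.81. The treated animals were alike here, unlike the replication factors, in which animals 1 and 4 led. Dclre1a, a nuclease of interstrand crosslink repair, rose by 1.45 ± 0.18, against 0.05 by another probe set, and Ncapg and Smc2, subunits of condensin, by 1.21 and 1.15. Ung, which removes uracil from DNA, rose by 1.49.

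Actin-binding proteins formed another set. Ablim1 was 7.81, 8.27, 8.44 and 8.39 with vehicle and 9.76, 9.87, 9.78 and 10.08 with the drug (1.64 ± 0.12, limma adjusted p = 2.04e-09), but its 3 other, dimmer probe sets above the filter differed by -0.16 to 0.27. The formin Inf2 rose by 1.44 ± 0.15, against 0.56 by another probe set, Myo18a by 1.34 and the crosslinker Actn1 by 1.28. Their treated values were close together in all 4 animals.

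Among myeloid genes outside the lists, the Fc receptor Fcgr4 was 5.68, 5.66, 5.24 and 5.27 with vehicle and 7.38, 6.55, 5.61 and 7.22 with the drug, so treated animal 3 lay within the vehicle range. Mpeg1, a pore-forming protein of macrophages, rose by 1.20 and the cytokine receptor subunit Csf2rb by 1.19. Blnk, Fabp7 and Mgst3 rose by 2.21, 1.88 and 1.38, and a further probe set for Mgst3 differed by -0.06. Blnk was dim, with a mean of 4.41 with vehicle and 6.62 with the drug, against a median signal of 6.49.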
